A study of Mus musculus with 12 samples.

Results

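Cells that leave quiescence must make the building blocks of RNA and DNA. Purine rings are assembled on phosphoribosyl pyrophosphate (PRPP) up to IMP, which is then converted to AMP and GMP, and pyrimidines are made through UMP to CTP. The purine ring takes up glycine and folate-bound carbon units, thymidylate synthesis takes folate-bound carbon as well, and serine is a source of both. Cells can also recover bases and nucleosides by salvage. The genes described here are 38 mouse enzymes of these routes, listed by name for their role in these routes: 6 of purine synthesis, 4 of the IMP branch, 5 of pyrimidine synthesis, 2 PRPP synthetases, 6 that supply deoxynucleotides, 5 of salvage and adenosine breakdown, 2 nucleoside diphosphate kinases, 5 of folate carbon metabolism and 3 of serine synthesis. They were found among the 37991 genes of the count table through their Ensembl identifiers, all 38 passed the filter on low counts, and 13538 genes were tested in all.

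RNA was sequenced from splenic B cells of mice aged 8 weeks. The control mice carried CD23-iCre alone (Cre-only), and the Runx1 c-k/o mice carried CD23-iCre together with a Runx1 allele floxed at exon 4. The latter are labelled Runx1-KO and are called the knockout in what follows, and both genotypes carry the Cre. This Cre is driven by the CD23 promoter and acts from the transitional B cell stage. The cells were taken at rest (0 h) or after 3 h with anti-IgM + IL-4, with 3 replicates in each of the 4 groups and 12 samples in all. No group was cultured for 3 h without the stimuli, so time in culture and stimulation cannot be told apart.

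Library totals lay between 14442251 and 23641552 counts, and the floor of 3 counts corresponded to 0.127 to 0.208 CPM. Levels are given as normalized CPM, that is, counts scaled to library sizes after TMM normalization, and are relative to the other transcripts of a sample. In such bulk samples, fewer cells of a type and less RNA per cell cannot be told apart. Runx1 itself, a transcription factor of blood cells, was at rest at 83.6, 81.8 and 86.7 normalized CPM in Cre-only samples, and at 102, 95.7 and 103 in the knockout. After 3 h it was at 38.5, 37.0 and 34.9 in Cre-only cells and at 47.3, 70.6 and 74.5 in the knockout. Runx1 RNA was thus not lower in the knockout libraries, with log2 fold changes of 0.25 at rest (standard error, SE, 0.135, edgeR adjusted p = 0.548) and 0.80 at 3 h (SE 0.138, edgeR adjusted p = 0.00769). The counts cover the whole gene and do not separate exon 4, so they do not check the deletion. By Western blot, the authors reported that RUNX1 protein was missing from resting B cells of the knockout mice. Summed levels of 9 B cell markers, all detected, were 9914 to 10880 at rest and 5373 to 6056 after 3 h, while those of 8 T cell markers stayed at or below 8.14 and those of 5 NK cell markers at or below 4.77. Those of 5 erythroid markers were 36.3 to 254 at rest and 12.5 to 137 at 3 h in Cre-only cells, and 246 to 410 and 115 to 203 in the knockout. Those of 8 myeloid markers were 250.9 to 305 at rest and 17.7 to 25.4 at 3 h in Cre-only cells, and 216 to 424 and 19.3 to 46.9 in the knockout. Their part in the activation and genotype values below was not tested. Replicate 2 of the resting and replicate 1 of the 3-h knockout cells stood apart from the other replicates of their groups. The chi-square per degree of freedom between counts of replicates was 28.9 to 76.3 for pairs that held 1 of them and 4.78 and 12.8 for the remaining pairs of these groups.

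The proximal promoters of the genes are shown first, for the sequence motifs of factors linked to B cell activation and to Runx1. RefSeq windows of 250 bases before to 50 bases after the transcription start (GRCm38.p6, not the mm9 build of the counts) were held for 36 of the 38 genes, all but Dhodh and Pfas. The motifs searched, on both strands, were the E-box CACGTG, which MYC binds, the RUNX motifs TGTGGT and TGCGGT, the E2F motifs TTTCCCGC and TTTGGCGC, and the ATF4 element TGATGNAA. CACGTG was present in 5 of the 36 genes (13.9%), against 8.09% of all 27025 genes with a window. TGTGGT was present in 12 (33.3%, against 18.9%), TGCGGT in 5 (13.9%, against 7.34%), TTTCCCGC in 2 (5.56%, against 1.24%), TTTGGCGC in 0 (against 0.585%) and TGATGNAA in 1 (2.78%, against 4.51%). These are matches of letters and not measured binding. The following stretches lie upstream of the start and are written 5′ to 3′ on the strand of the gene. Capitals mark the matches, and a RUNX or E2F motif on the opposite strand reads as its reverse complement.
Ppat, chr5:76951709-76951809, minus strand, with 2 E2F motifs around a RUNX motif: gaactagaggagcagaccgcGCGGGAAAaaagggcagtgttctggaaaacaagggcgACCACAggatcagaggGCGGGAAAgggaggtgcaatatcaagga
Paics, chr5:76951079-76951124, plus strand, E-box: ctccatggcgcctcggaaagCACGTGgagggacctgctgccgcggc
Atic, chr1:71557129-71557155, plus strand, E-box next to the start: gaggggcgggacctcggggtCACGTGg
Impdh2, chr9:108560237-108560351, plus strand, RUNX motif and E-box: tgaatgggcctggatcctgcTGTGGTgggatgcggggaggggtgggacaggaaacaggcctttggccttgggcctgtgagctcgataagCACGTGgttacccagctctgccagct
Ctps, chr4:120569480-120569606, minus strand, 1 of 2 windows, 2 RUNX motifs: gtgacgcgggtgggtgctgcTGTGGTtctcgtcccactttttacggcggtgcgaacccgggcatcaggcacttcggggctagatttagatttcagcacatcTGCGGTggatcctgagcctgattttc
Prps1, chrX:140456413-140456460, plus strand, ATF4 element: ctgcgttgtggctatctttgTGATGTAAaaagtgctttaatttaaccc
Rrm1, chr7:102441634-102441679, plus strand, RUNX motif: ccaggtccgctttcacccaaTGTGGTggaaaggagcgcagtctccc
Tyms, chr5:30073661-30073706, minus strand, E-box: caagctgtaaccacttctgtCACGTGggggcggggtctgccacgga
Nme1, chr11:93968029-93968074, minus strand, 1 of 2 windows, E-box: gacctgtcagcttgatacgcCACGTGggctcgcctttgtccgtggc

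The stretches shown include all 5 genes with an E-box, of which Paics, Atic, Impdh2 and Nme1 rose on activation and Tyms fell. The other genes shown all rose, but RUNX motifs were not limited to genes that rose. Such motifs also lay in windows of Ctps2, Prps2, Dck and Tk2, which fell and are not shown. Those of Rrm2, Tyms and Ada, which fell as well, held none. The other window of Nme1, also not shown, held both an E-box and a RUNX motif. The Ppat and Paics starts lie 276 bases apart on chromosome 5 on opposite strands, and the gene models overlap. So do Gart and Gm15964, Umps and Gm15829, Tyms and Gm17448, Tk1 and Afmid, Uck1 and Pomt1, Shmt1 and Smcr8, and Shmt2 and Ndufa4l2. The strand setting of the counting is not given in the sources used here, so reads in these overlaps cannot be told apart.

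On activation, the listed genes of purine synthesis, the IMP branch, the nucleoside diphosphate kinases, folate metabolism and serine synthesis all rose, and those of pyrimidine synthesis, PRPP supply, deoxynucleotide supply and salvage split. In Cre-only cells 31 of the 38 rose and 7 fell (edgeR's quasi-likelihood test, adjusted p under 0.05), against 38.6% of all tested genes that rose and 36.4% that fell. In the knockout the same count of 31 rose and 7 fell, against 37.7% and 36.6% of all tested genes. The median log2 fold change of the 38 was 1.70 in Cre-only and 1.71 in the knockout, beside medians of 0.03 and 0.00 over all tested genes. For each of the 38 the 3-h samples lay entirely above or entirely below the resting samples in both genotypes, an arrangement found in 84.4% of all tested genes in Cre-only and 72.8% in the knockout. The summed level of the 38 was 1753, 1766 and 1710 normalized CPM at rest and 5746, 6002 and 6049 after 3 h in Cre-only samples, a 3.40-fold ratio of the means. In the knockout it was 1719, 2387 and 1740 at rest and 7190, 5759 and 6222 after 3 h, a 3.28-fold ratio. With 1 RUVs factor of unwanted variation in the edgeR fit, the medians were 1.12 and 1.02. With total counts in place of TMM the median of all tested genes shifted from 0.03 to -0.10 in Cre-only and from 0.00 to -0.11 in the knockout, and that of the 38 to 1.58 and 1.60.

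**Figure D1:**
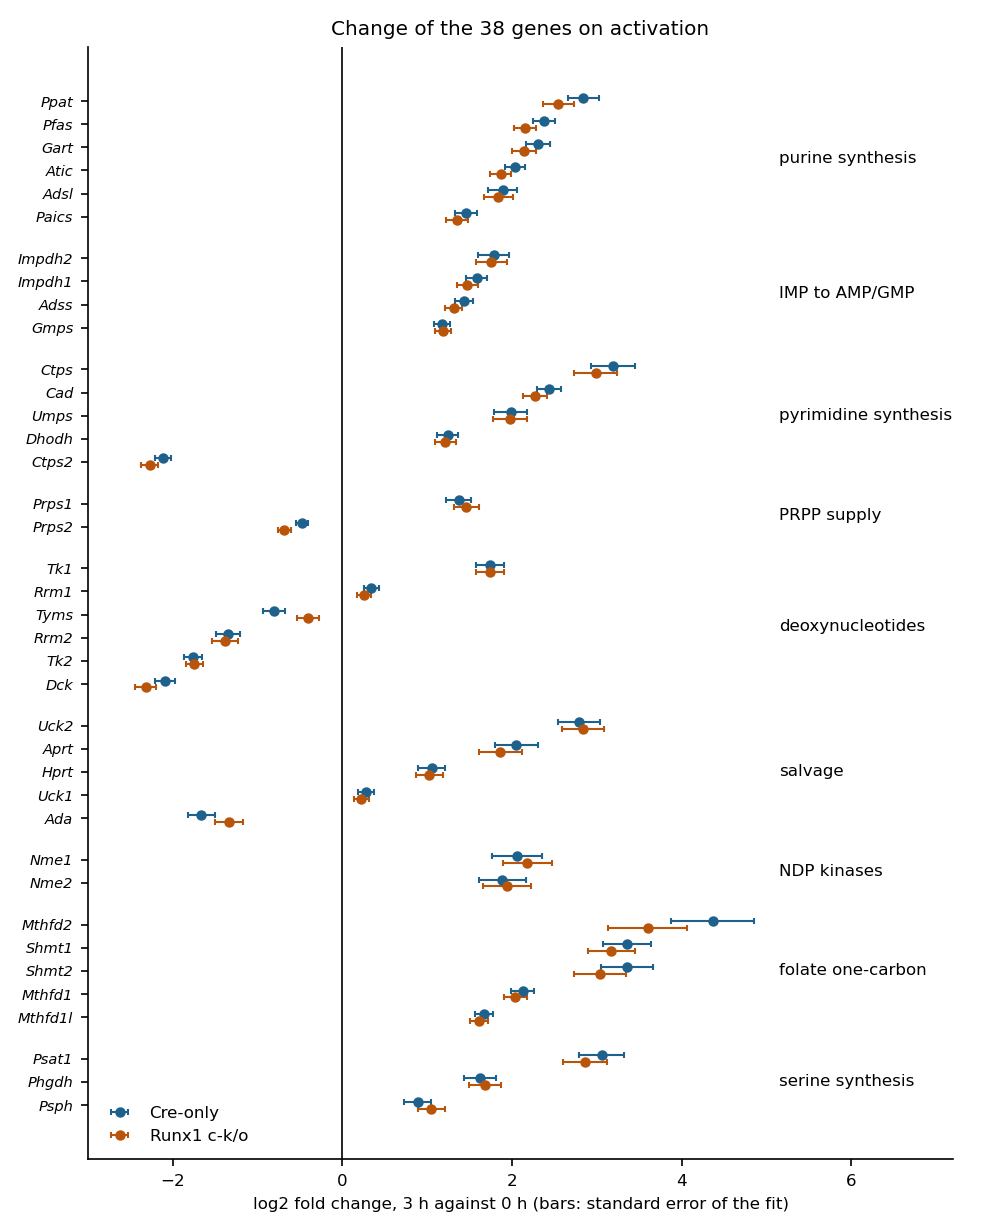
Log2 fold change of each of the 38 genes between 3 h and rest (x axis), by role, in Cre-only (blue) and Runx1 c-k/o cells (orange), with bars for the standard error of the edgeR fit. The values run from -2.11 (Ctps2) to 4.37 (Mthfd2) in Cre-only cells, and the 7 genes left of 0 are Ctps2, Prps2, Tyms, Rrm2, Tk2, Dck and Ada.

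The folate enzymes, which move carbon units from serine onto folate for purine and thymidylate synthesis, had the highest median rise of the 9 roles. All 5 rose in both genotypes, with a median log2 fold change of 3.35 in Cre-only and 3.04 in the knockout. Mthfd2, the mitochondrial methylene-folate dehydrogenase (ENSMUSG00000005667, in mm9 on chromosome 6, minus strand, from 83255685 to 83267600), was at 12.4, 11.4 and 11.5 normalized CPM at rest and 238, 248 and 244 after 3 h in Cre-only samples. Knockout levels were 11.2, 49.8 and 11.6 at rest and 357, 256 and 266 after 3 h. The resting knockout value of 49.8 is that of replicate 2, and the other 5 resting samples lie between 11.2 and 12.4. The log2 fold change was 4.37 in Cre-only cells (SE 0.487, edgeR adjusted p = 4.68e-06), a 20.6-fold rise, and 3.6 in the knockout (SE 0.465, edgeR adjusted p = 1.75e-05). Without resting replicate 2 the knockout value was 4.70, above that of Cre-only cells. Shmt2 and Shmt1, the mitochondrial and cytosolic enzymes that take a carbon unit from serine, rose by 10.2-fold and 10.3-fold in Cre-only cells, to 714 ± 23.3 and 178 ± 2.46 normalized CPM (SD, n = 3 each). Mthfd1, the cytosolic trifunctional enzyme, rose from 52.5 ± 1.24 to 229 ± 5.54 and Mthfd1l, which releases formate in mitochondria, from 48.4 ± 1.06 to 154 ± 14.3 (SD, n = 3 each).

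Serine synthesis from glycolytic carbon runs through Phgdh, Psat1 and Psph in that order, and all 3 rose in both genotypes. Psat1, the phosphoserine aminotransferase (ENSMUSG00000024640, minus strand of chromosome 19 from 15979168 to 16021827), was at 28.4, 31.9 and 26.5 normalized CPM at rest and 224, 247 and 252 after 3 h in Cre-only samples. Levels in the knockout were 34.4, 74.5 and 34.9 at rest and 411, 305 and 330 after 3 h. The 3-h samples lay far above the resting ones in both genotypes, and at each time all 3 knockout samples lay above the 3 Cre-only samples. Its log2 fold change on activation was 3.06 in Cre-only (SE 0.264, edgeR adjusted p = 5.20e-07) and 2.86 in the knockout (SE 0.260, edgeR adjusted p = 9.24e-07). Phgdh, which starts the route, rose by 1.62 on the log2 scale in Cre-only cells, from 64.1 ± 2.55 to 198 ± 12.7 normalized CPM (SD, n = 3 each). Psph, the last enzyme, rose by 0.89, from 10.3 ± 0.538 to 19.2 ± 0.712 (SD, n = 3 each). The Psph call in Cre-only cells was lost with 1 RUVs factor in edgeR and in DESeq2, with a log2 fold change down to 0.32 (adjusted p up to 0.208), and in the knockout with this factor in DESeq2 (adjusted p = 0.0519).

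The 6 enzymes of the purine route to IMP all rose in both genotypes, with log2 fold changes from 1.46 (Paics) to 2.84 (Ppat) in Cre-only cells. Ppat, which commits PRPP to purine synthesis (ENSMUSG00000029246, minus strand of chromosome 5 from 77342274 to 77380603), was at 22.02, 23.2 and 23.3 normalized CPM at rest and 154, 174 and 163 after 3 h in Cre-only samples. The knockout samples were at 20.2, 36.5 and 22.9 at rest and 168, 135 and 161 after 3 h. The resting and 3-h ranges were far apart in both genotypes, with replicate 2 the highest of the resting knockout samples. Its log2 fold change was 2.84 in Cre-only (SE 0.184, edgeR adjusted p = 6.18e-08) and 2.55 in the knockout (SE 0.183, edgeR adjusted p = 1.52e-07). Paics, its neighbour on the opposite strand, which acts at 2 later steps, rose from 71.7 ± 2.87 to 197 ± 4.73 normalized CPM in Cre-only cells (SD, n = 3 each). Gart and Pfas, which act between them, rose 4.95-fold and 5.18-fold, and Adsl and Atic, which act later and last, 3.71-fold and 4.097-fold.

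Of the branch from IMP, Impdh1, Impdh2 and Gmps on the way to GMP and Adss on the way to AMP rose in both genotypes, with log2 fold changes of 1.18 to 1.79 in Cre-only cells. Impdh2, an IMP dehydrogenase (ENSMUSG00000062867, plus strand of chromosome 9 from 108462774 to 108467895), was at 114, 113 and 109 normalized CPM at rest and 378, 391 and 384 after 3 h in Cre-only samples. Knockout levels were 110.0, 176 and 114 at rest and 565, 383 and 403 after 3 h. The times did not overlap, and the highest knockout sample at each time was the library that stood apart. Its log2 fold change was 1.79 in Cre-only (SE 0.183, edgeR adjusted p = 2.33e-06) and 1.75 in the knockout (SE 0.183, edgeR adjusted p = 2.90e-06). Impdh1, Adss and Gmps rose 3.00-fold, 2.70-fold and 2.26-fold in Cre-only cells.

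Among the pyrimidine genes, the enzymes from carbamoyl phosphate to UMP rose and the CTP synthetases split. Cad, which carries out the opening steps, rose 5.40-fold in Cre-only cells, from 92.8 ± 3.14 to 502 ± 13.6 normalized CPM (SD, n = 3 each). Dhodh, the mitochondrial step, rose 2.36-fold, and Umps, which makes UMP, rose 3.95-fold. Ctps, a CTP synthetase (ENSMUSG00000028633, minus strand of chromosome 4 from 120212473 to 120242881), was at 24.9, 27.7 and 26.4 normalized CPM at rest and 237, 250 and 233 after 3 h in Cre-only samples. Levels in the knockout were 21.96, 48.9 and 22.5 at rest and 285, 219 and 233 after 3 h. The times did not overlap in either genotype, and replicate 2 was again the highest resting knockout sample. The log2 fold change of Ctps was 3.19 in Cre-only (SE 0.260, edgeR adjusted p = 3.27e-07) and 2.98 in the knockout (SE 0.258, edgeR adjusted p = 6.25e-07). Ctps2, the other CTP synthetase, fell by 2.11 on the log2 scale in Cre-only cells, from 103 ± 1.82 to 23.9 ± 2.16 normalized CPM (SD, n = 3 each), and by 2.27 in the knockout.

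The PRPP synthetases, which supply the ribose phosphate for both routes, also split. Prps1 (ENSMUSG00000031432, plus strand of chromosome X from 136991152 to 137010679) was at 37.3, 40.1 and 37.9 normalized CPM at rest and 97.6, 103 and 98.5 after 3 h in Cre-only samples. The knockout samples were at 37.0, 51.1 and 36.0 at rest and 136, 94.9 and 111 after 3 h. All 3-h samples lay above all resting samples, and the log2 fold changes were 1.37 in Cre-only (SE 0.148, edgeR adjusted p = 3.45e-06) and 1.46 in the knockout (SE 0.148, edgeR adjusted p = 2.24e-06). Prps2 fell from 97.3 ± 3.83 to 70.0 ± 3.33 normalized CPM in Cre-only cells (SD, n = 3 each), by 0.48 on the log2 scale.

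The genes that supply deoxynucleotides went both ways: 2 of the 6 rose and 4 fell in each genotype, with medians of -1.08 in Cre-only and -0.89 in the knockout. Dck, the deoxycytidine kinase (ENSMUSG00000029366, plus strand of chromosome 5 from 89194021 to 89212306), was at 43.5, 44.9 and 42.6 normalized CPM at rest and 9.50, 10.5 and 10.9 after 3 h in Cre-only samples. Knockout levels were 47.6, 38.8 and 45.0 at rest and 7.403, 9.78 and 9.13 after 3 h. The resting samples all lay above the 3-h samples, and here the libraries that stood apart were the lowest of their groups. The log2 fold change was -2.09 in Cre-only (SE 0.118, edgeR adjusted p = 2.60e-08) and -2.32 in the knockout (SE 0.120, edgeR adjusted p = 2.62e-08). Tk2, the mitochondrial thymidine kinase, fell from 88.4 ± 1.26 to 26.1 ± 1.62 normalized CPM in Cre-only cells, while Tk1, the cytosolic thymidine kinase of dividing cells, rose from 37.0 ± 3.21 to 124 ± 11.7 (SD, n = 3 each).

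Ribonucleotide reductase makes deoxynucleotides from ribonucleotides, with Rrm1 as its large and Rrm2 as its S-phase small subunit. Rrm1 rose by 0.34 on the log2 scale in Cre-only cells and by 0.26 in the knockout (edgeR adjusted p = 0.00329 and 0.0183). Rrm2 fell from 12.3 ± 1.85 to 4.84 ± 0.383 normalized CPM in Cre-only cells and from 9.26 ± 0.570 to 3.55 ± 0.346 in the knockout (SD, n = 3 each). Tyms, the thymidylate synthase, was at 14.4 ± 1.24 and 8.19 ± 0.220 in Cre-only and 12.6 ± 1.14 and 9.53 ± 1.66 in the knockout before and after activation (SD, n = 3 each), with log2 fold changes of -0.81 and -0.41 (edgeR adjusted p = 0.000137 and 0.0160). The summed level of 10 markers of cycling cells, such as Mki67 and Top2a, moved the same way as Rrm2 and Tyms: it was 172 to 217 at rest and 117 to 145 at 3 h in Cre-only cells, and 118 to 135 and 69.5 to 90.0 in the knockout, with all 10 detected. Its part in these results was not tested. In the knockout the Rrm1 call was lost without resting replicate 1 or 3 (edgeR adjusted p = 0.0562 and 0.0792), and it held in 7 of 16 alternatives. In Cre-only cells the Rrm1 call held in 14 of 16 and was lost with 1 RUVs factor in edgeR and in DESeq2 (adjusted p up to 0.483). The Tyms call in the knockout was lost without resting replicate 3 or 3-h replicate 1 or 3 (edgeR adjusted p = 0.0516 to 0.0647). It held in 10 of 16 alternatives there. In Cre-only cells the Tyms call was lost with 1 RUVs factor in edgeR (adjusted p = 0.0538).

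Salvage recovers bases and nucleosides, and 4 of the 5 genes placed here rose. Uck2, a uridine-cytidine kinase (ENSMUSG00000026558, minus strand of chromosome 1 from 169156221 to 169215258), was at 13.4, 12.1 and 11.5 normalized CPM at rest and 81.4, 85.4 and 89.0 after 3 h in Cre-only samples. Levels in the knockout were 8.08, 18.9 and 8.76 at rest and 91.3, 78.2 and 85.5 after 3 h. The 3-h samples lay well above the resting ones, and at rest 2 of the knockout samples lay below and 1 above all Cre-only samples. Its log2 fold change was 2.79 in Cre-only (SE 0.248, edgeR adjusted p = 6.86e-07) and 2.83 in the knockout (SE 0.250, edgeR adjusted p = 7.39e-07). A second Uck2 identifier (ENSMUSG00000053664) of 93 bases held 13 to 29 counts per resting and 120 to 170 per 3-h sample of Cre-only cells. Hprt and Aprt, which rebuild purine nucleotides from free bases with PRPP, rose 2.07-fold and 4.14-fold in Cre-only cells. Ada, the adenosine deaminase, fell from 9.07 ± 1.11 to 2.86 ± 0.143 normalized CPM there (SD, n = 3 each).

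Uck1, the other uridine-cytidine kinase, had the smallest change of the 38. It was at 49.0 ± 2.55 normalized CPM at rest and 59.4 ± 0.721 after 3 h in Cre-only cells (SD, n = 3 each). The log2 fold changes were 0.28 in Cre-only (edgeR adjusted p = 0.0153) and 0.22 in the knockout (edgeR adjusted p = 0.0432). The call held in 8 of 16 alternatives in Cre-only and 2 of 16 in the knockout, and without resting Cre-only replicate 3 the adjusted p was 0.0552. In the knockout it was lost without any 1 of resting replicates 1, 2 and 3 or 3-h replicate 1, with an adjusted p of 0.0557 to 0.193. With 1 RUVs factor its sign turned to -0.05 in the edgeR fit of knockout cells, so that the direction of Uck1 depends on the processing.

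The nucleoside diphosphate kinases Nme1 and Nme2, which convert diphosphates to triphosphates, both rose. Nme1 (ENSMUSG00000037601, minus strand of chromosome 11 from 93818293 to 93829835) was at 19.8, 20.4 and 20.3 normalized CPM at rest and 82.5, 84.7 and 85.3 after 3 h in Cre-only samples. The knockout samples were at 19.9, 41.4 and 22.6 at rest and 187, 98.9 and 94.4 after 3 h. The libraries that stood apart were the highest of their groups, at 41.4 and 187. The log2 fold change was 2.06 in Cre-only (SE 0.289, edgeR adjusted p = 3.48e-05) and 2.18 in the knockout (SE 0.288, edgeR adjusted p = 2.13e-05). Nme2 was counted at 1.10 ± 0.222 and 4.07 ± 0.600 normalized CPM in Cre-only cells (SD, n = 3 each). Of its exon bases 48.9% are shared with a read-through gene model on the same strand, which was at 0 counts in all 12 samples, so the low level of Nme2 is uncertain. The same model shares 12.5% of the exon bases of Nme1, so the level of Nme1 is uncertain in that part as well.

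**Figure D2:**
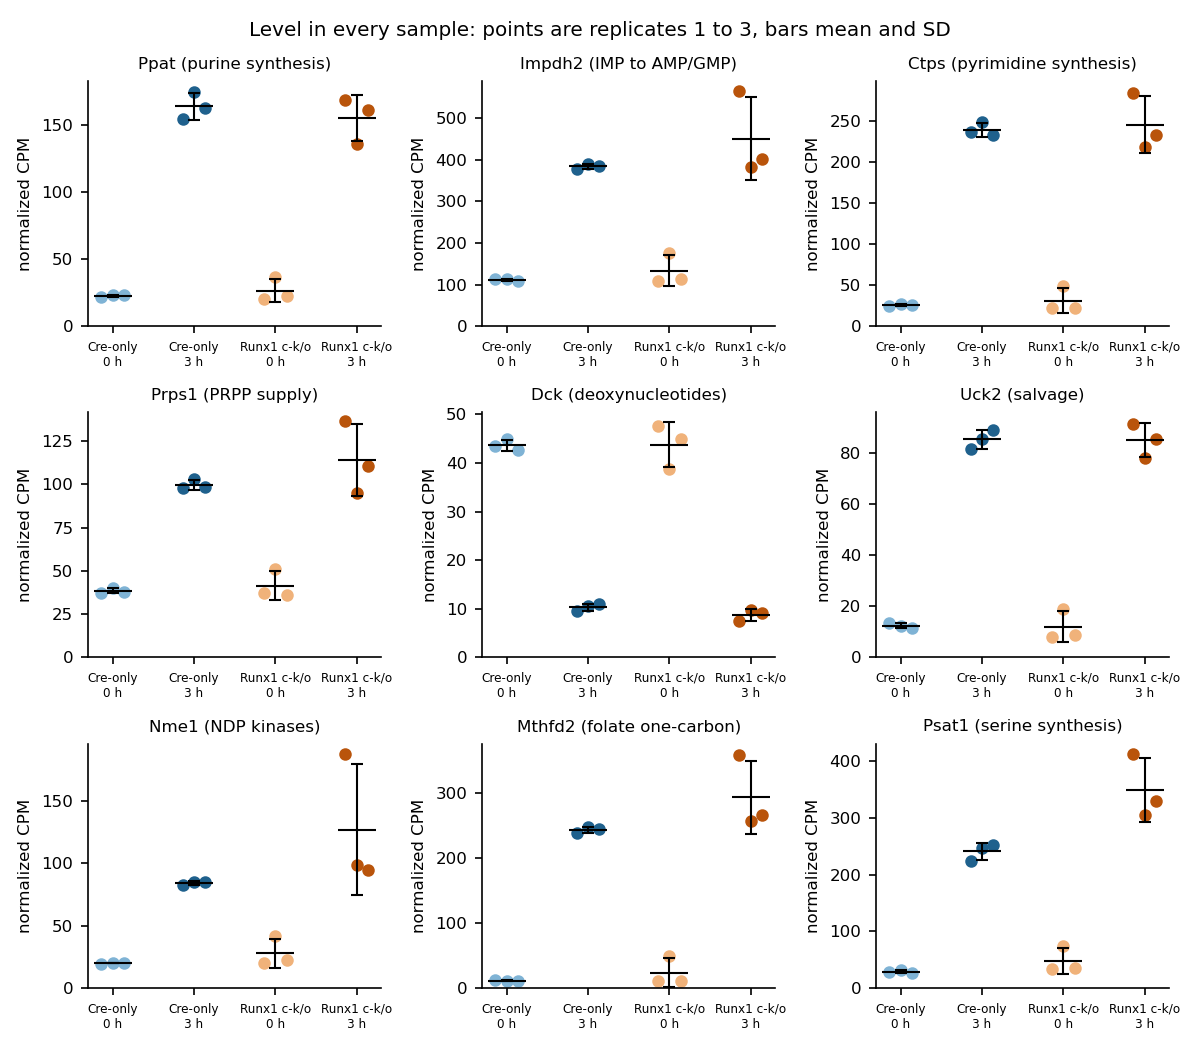
Normalized CPM (y axis, from 0) in every sample for the gene of each role with the largest change on activation in Cre-only cells, with bars for mean and SD of 3 replicates. The resting and 3-h samples are apart in each panel, and single Runx1 c-k/o samples sit above the others of their groups for Mthfd2 at rest (49.8) and Nme1 at 3 h (187).

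Several enzymes come as a pair of related genes, and the members of a pair did not always move together. For comparison between genes, levels are given here as normalized CPM per kb of exon. The length counts every annotated exon base of a gene, so the order between genes depends on the annotation as well. In Cre-only cells Ctps went from 7.95 to 72.4 and Ctps2 from 21.9 to 5.07, so that the more abundant CTP synthetase RNA changed from Ctps2 to Ctps. Prps1 went from 19.3 to 50.03 and Prps2 from 25.1 to 18.1, and Tk1 from 7.13 to 23.8 and Tk2 from 36.8 to 10.85. Uck2 went from 9.26 to 64.1 and Uck1 from 17.8 to 21.6. In each of these 4 pairs the order of the levels was reversed at 3 h. Shmt2 stayed above Shmt1 (30.6 and 4.48 at rest, 313 and 46.0 after 3 h) and Impdh2 above Impdh1 (66.4 and 14.7, then 229 and 44.2). In the knockout Ctps went from 9.38 to 74.2 and Ctps2 from 20.6 to 4.26, and the order of the levels was reversed in these 4 pairs too.

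Since reads can be split between related genes, their coding sequences were compared. Over the aligned bases of the longest annotated coding sequences, identity was 69.8% for Ctps and Ctps2, 79.9% for Prps1 and Prps2, 61.8% for Tk1 and Tk2, 74.1% for Uck1 and Uck2, 65.6% for Shmt1 and Shmt2, 73.6% for Impdh1 and Impdh2 and 80.0% for Nme1 and Nme2. The longest identical run was 34 bases, in Uck1 and Uck2.

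**Figure D3:**
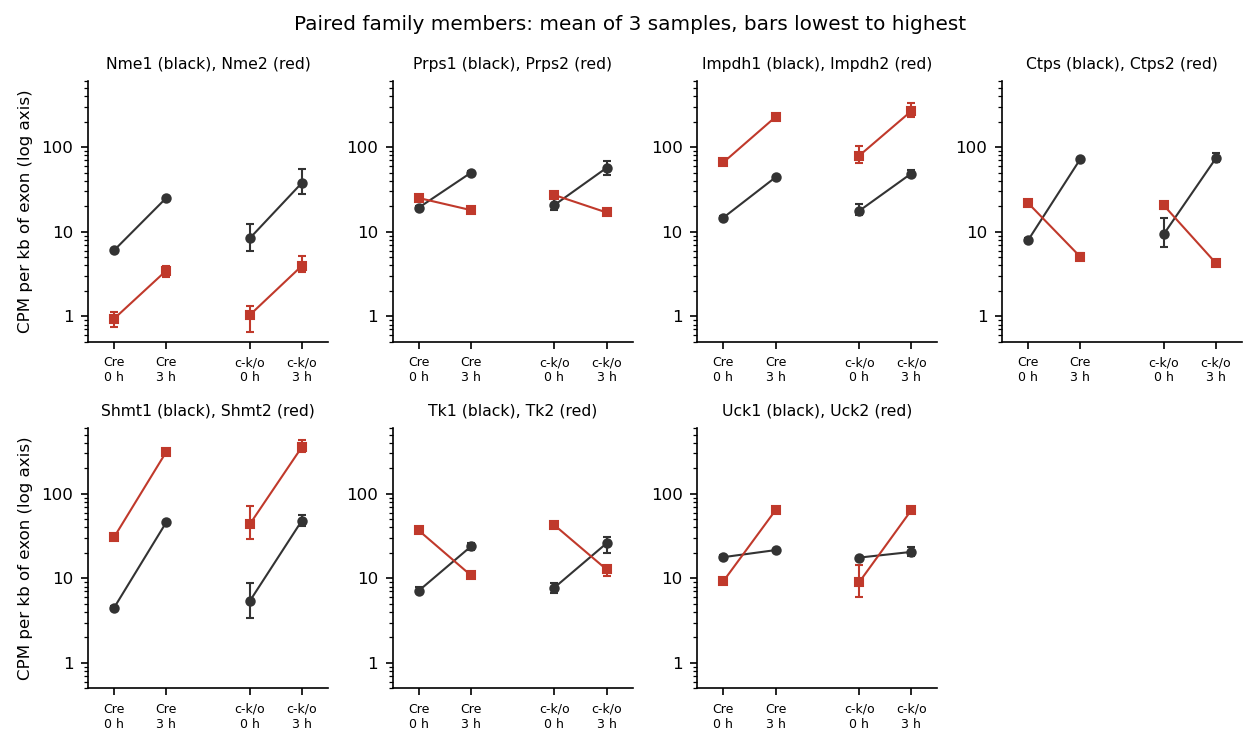
Normalized CPM per kb of exon (log axis) of 7 pairs of related genes at rest and after 3 h, with Cre-only cells on the left and Runx1 c-k/o cells on the right of each panel, as means of 3 samples with bars from the lowest to the highest. The lines cross for Prps1 and Prps2, Ctps and Ctps2, Tk1 and Tk2, and Uck1 and Uck2, and run side by side for the other pairs.

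The ranking by level changed as well. At rest in Cre-only cells the highest of the 38 per kb were Impdh2 (66.4), Hprt (51.0) and Tk2 (36.8), whose ranges over samples did not overlap. After 3 h they were Shmt2 (313), Impdh2 (229), Aprt (121) and Hprt (106), also without overlap between neighbours. The lowest at rest were Dhodh, Tyms and Nme2, of which the ranges of Dhodh (2.31 to 2.48) and Tyms (2.17 to 2.57) overlapped. The level of Nme2 is uncertain, as given above. After 3 h the lowest were Rrm2, Ada and Tyms, with Ada (1.36 to 1.501) and Tyms (1.31 to 1.38) overlapping. This order rests on exon length: in normalized CPM Tyms (8.19) lay above Rrm2 (4.84) and Ada (2.86).

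The genotypes were compared at each time to ask whether the loss of Runx1 altered these genes before or during activation. No member passed the test at either time. At rest 0 of the 38 passed in edgeR at an adjusted p under 0.05 and 0 in DESeq2, against 1.49% of all tested genes called by edgeR. At 3 h the counts were also 0 and 0, against 2.77% of all tested genes. At an unadjusted p under 0.05 there were 4 of the 38 at rest and 6 at 3 h, beside 1496 and 2194 of the 13538 tested genes, which is near the background. With 1 RUVs factor in DESeq2, Aprt and Psat1 were called higher in the knockout at rest, against 4.51% of all tested genes called there. At 3 h Nme1 and Phgdh were called higher and Rrm1 lower with this factor, against 9.09% of all tested genes. These counts are near the background as well. The median log2 fold change of knockout over Cre-only samples was 0.13 at rest and 0.08 at 3 h, beside 0.03 and 0.01 over all tested genes. The 3 knockout samples all lay above the 3 Cre-only samples for 6 members at rest (Impdh1, Dhodh, Tk2, Aprt, Phgdh and Psat1), against 12% of all tested genes, and below for 1 (Rrm2), against 11.6%. At 3 h they lay above for 5 (Dhodh, Nme1, Mthfd2, Phgdh and Psat1), against 9.5% of all tested genes, and below for 4 (Ctps2, Prps2, Rrm1 and Rrm2), against 12.3%.

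The largest differences at rest were those of Mthfd2 and Psat1. Mthfd2 had a log2 fold change of 1.03 (SE 0.454, edgeR adjusted p = 0.427), which was -0.06 without replicate 2. Psat1 had 0.73 at rest (SE 0.251, edgeR adjusted p = 0.261) and 0.53 at 3 h (SE 0.241, edgeR adjusted p = 0.301). Without the library that stood apart at each time the values of Psat1 were 0.26 and 0.42. Phgdh had 0.37 and 0.44 (edgeR adjusted p = 0.50 and 0.265), and 0.12 and 0.25 without those libraries. Rrm2 had log2 fold changes of -0.41 at rest and -0.44 at 3 h (edgeR adjusted p = 0.229 and 0.179), with every knockout sample below every Cre-only sample at both times. The summed cycling markers given above also lay lower in every knockout sample at both times, and their part was not tested.

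Replicate 2 of the resting knockout cells had the highest level of its group for 33 of the 38 members, against 50.5% of all tested genes, and lay a median of 0.45 on the log2 scale above the other 2 replicates. Replicate 1 of the 3-h knockout cells was highest for 27 of the 38, against 41.1%, by a median of 0.26. Without the first, 13 of the 38 were higher in the resting knockout in place of 29, and the median went from 0.13 to -0.06. Uck2 alone of the 38 then passed the test, with a log2 fold change of -0.55 at rest (edgeR adjusted p = 0.0459), where 1.01% of all tested genes were called. Without the second, 20 were higher at 3 h in place of 24, and the median went from 0.08 to 0.04. With both libraries left out, an alternative chosen after the data were seen, 4 members were higher in the 3-h knockout: Psat1 by 0.42 (edgeR adjusted p = 0.000568), Phgdh by 0.25 (0.0138), Nme1 by 0.22 (0.0400) and Tk1 by 0.31 (0.0437), where 6.65% of all tested genes were called.

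The same libraries were the highest at their times in a list of activation genes. The summed level of 9 early activation genes, such as Myc, Egr2 and Cd83, was 4600 in resting knockout replicate 2 and 3383 to 3973 in the other resting samples, and 9034 in 3-h knockout replicate 1 and 7068 to 7935 in the other 3-h samples. Myc, a transcription factor with nucleotide synthesis genes among its known targets, was at 293, 500 and 343 normalized CPM in the resting and 1475, 1120 and 1183 in the 3-h knockout cells. In Cre-only cells it was at 328, 374 and 426 at rest and 964, 1064 and 1015 after 3 h. Resting knockout replicate 2 was also the highest resting sample in the 8 myeloid markers (424, against 216 to 342) and the 4 plasma cell markers (285, against 92.5 to 202). At 3 h knockout replicate 1 was not: its myeloid sum was 21.1 and its plasma cell sum 60.8, and the highest sums, 46.9 and 136, were those of knockout replicate 2. All markers of these lists were detected, and their part in the values of the 38 genes was not tested.

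**Figure D4:**
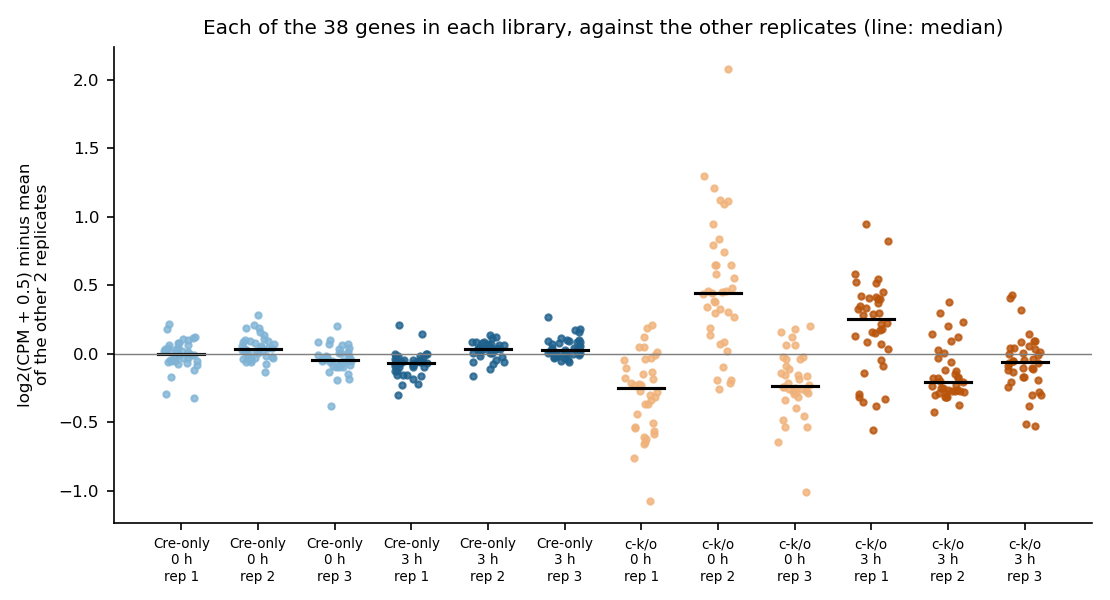
Each of the 38 genes in each library as log2(CPM + 0.5) minus the mean of the other 2 replicates of its group (y axis), with a line at the median. The resting Runx1 c-k/o replicate 2 has a median of 0.45 and the 3-h Runx1 c-k/o replicate 1 of 0.26, while the Cre-only medians lie between -0.07 and 0.04.

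**Figure D5:**
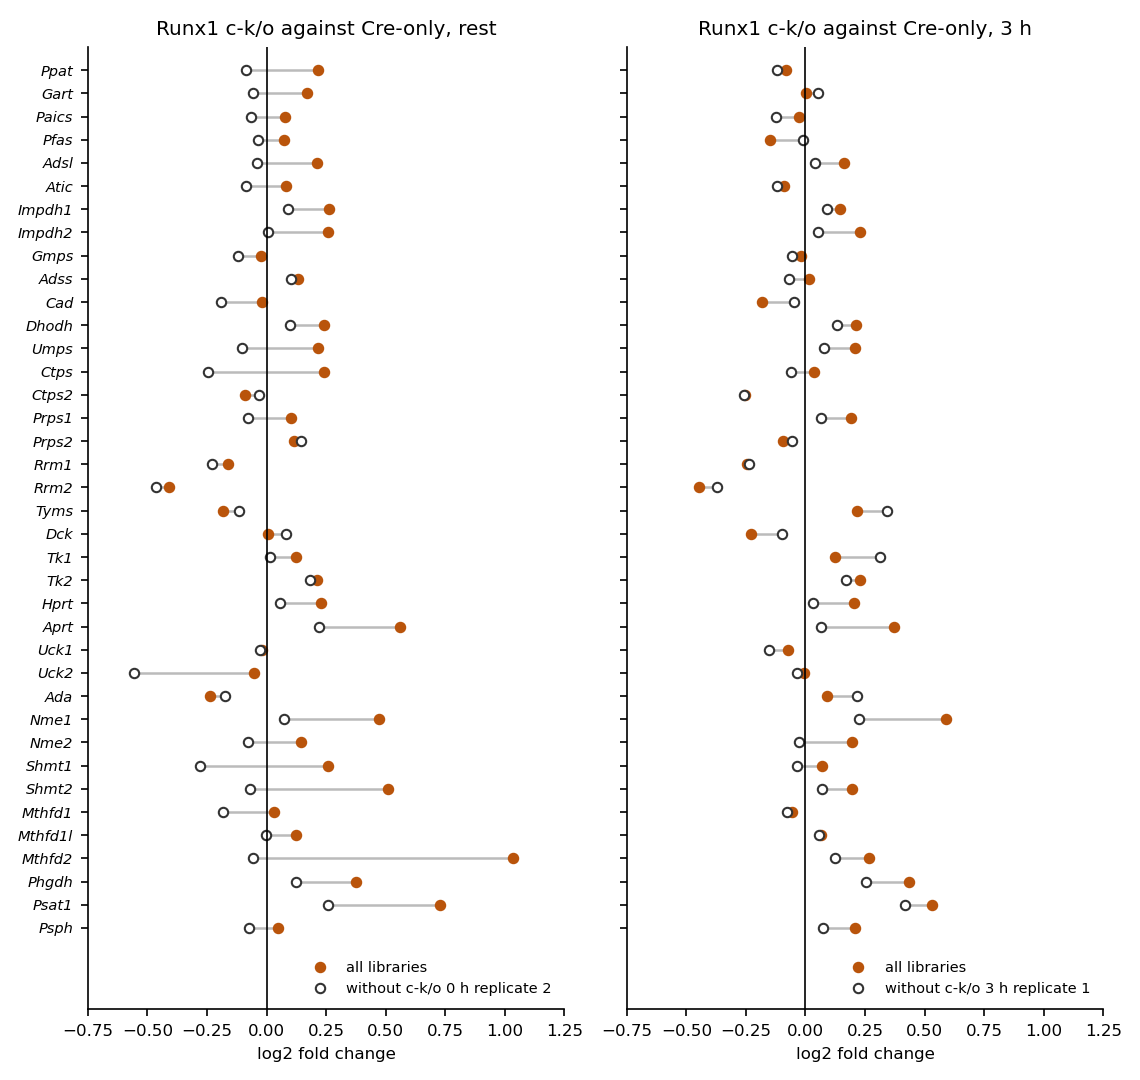
Log2 fold change of Runx1 c-k/o over Cre-only samples (x axis) of each of the 38 genes at rest (left) and at 3 h (right), with all libraries (filled) and without the library that stood apart at that time (open). At rest most values move left when the library is left out, Mthfd2 from 1.03 to -0.06, and 16 of the 38 change sign.

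The change on activation was compared between the genotypes as an interaction. None of the 38 passed (edgeR adjusted p of at least 0.98, 0 at an unadjusted p under 0.05, 0 in DESeq2), against 0.0813% of all tested genes. The differences ran from -0.76 (Mthfd2) to 0.40 (Tyms) on the log2 scale with a median of -0.07. Without resting knockout replicate 2 the value of Mthfd2 was 0.32 and the median 0.12.

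A further 75 genes of the surrounding pathways were looked up, of which 65 were tested. In Cre-only cells 33 rose and 15 fell on activation, and in the knockout 32 rose and 15 fell, of 65 each, where 38.6% and 36.4% of all tested genes rose and fell in Cre-only cells and 37.7% and 36.6% in the knockout. Their median log2 fold change was 0.49 in Cre-only cells, against 1.70 for the 38. The largest rises in Cre-only cells were those of Slc29a2, a nucleoside transporter (3.96, from 2.54 to 39.4 normalized CPM), Slc19a1, the reduced folate carrier (3.92, from 12.4 to 189), and Ak4, a mitochondrial adenylate kinase (3.80). Ak4 was at or below 0.171 normalized CPM in the resting Cre-only samples, within the range of the floor of 3 counts, so its fitted fold change depends on the prior count. The largest falls were those of Slc28a2, a concentrative nucleoside transporter (-3.62, from 206 to 16.7), Ampd3, an AMP deaminase (-3.32, from 24.8 to 2.46), and Cmpk2, a mitochondrial nucleotide kinase of the interferon response (-2.84, from 23.3 to 3.22). The 8 tested genes of the methionine cycle held 7 that rose, among them Mat2a, which makes S-adenosylmethionine and went from 238 to 1191 normalized CPM. Samhd1, which degrades deoxynucleotide triphosphates, fell from 629 to 134 normalized CPM in Cre-only cells. It belongs to a list of 8 further genes of deoxynucleotide supply, of which 3 rose and 4 fell there. Those that rose were Dctd, Dctpp1 and Dtymk, with log2 fold changes of 3.39, 2.79 and 0.97.

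Among these 65 genes 1 was called between the genotypes at rest and 2 at 3 h, where 1.49% and 2.77% of all tested genes were called, so the counts are near the background. Adk, the adenosine kinase, was at 11.4, 11.4 and 10.04 normalized CPM in resting Cre-only and 15.7, 18.5 and 19.0 in resting knockout cells. After 3 h it was at 8.89, 9.54 and 10.6 in Cre-only and 15.3, 13.1 and 14.9 in the knockout. All knockout samples lay above all Cre-only samples at both times, with log2 fold changes of 0.69 at rest (SE 0.117, edgeR adjusted p = 0.0111) and 0.58 at 3 h (SE 0.119, edgeR adjusted p = 0.0221). Each call held in 12 of 16 alternatives. At rest it was lost without any 1 of the Cre-only replicates or knockout replicate 3, with adjusted p up to 0.0682. At 3 h it was lost without Cre-only replicate 1 or 2 and in further alternatives not named here, with adjusted p up to 0.119 over all alternatives. Cmpk2 was at 3.63, 2.03 and 4.01 normalized CPM in 3-h Cre-only and 4.57, 7.81 and 9.13 in 3-h knockout cells, a log2 fold change of 1.14 (SE 0.258, edgeR adjusted p = 0.0357), and this call held in 8 of 16 alternatives. It was lost without any 1 of the Cre-only 3-h replicates or of knockout replicates 2 and 3, with adjusted p up to 0.208.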

How the data were processed

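Poly(A)-selected, stranded libraries were made by the authors from TRIzol-extracted RNA of splenic B cells with paired-end sequencing. Alignment by the authors was to mm9 (NCBIM37) with TopHat2 (2.0.11 in the submitters' processing notes) and Ensembl annotation. The authors deposited featureCounts read counts per gene, without normalization. Their own calls came from DESeq2 with RUV-seq factors of unwanted variation, unlike the edgeR fits reported here, which hold no such factor. Strand setting and handling of multiply aligned reads are not given in the sources used here. ERCC spike-in RNA was added to the lysates by the authors, but the table held 0 spike-in entries.

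Genes were placed with the GENCODE annotation of mm9; where a symbol had 2 identifiers (Uck2, Nme2), the longer gene model was used. Counts were filtered with filterByExpr (minimum count 10), normalized by TMM and fitted with edgeR 4.0.16 (robust quasi-likelihood, R 4.3.3) with 1 term per group over all 12 samples, and p-values were adjusted by Benjamini-Hochberg over all 13538 genes, with a threshold of 0.05. Replicates are separate samples in the labels, which do not say that they are separate animals, so p-values measure the spread between these samples. An exact permutation test of 3 against 3 samples cannot go below p = 0.1 and was not used. Floors cover counting error only. The fit was tested on simulated data with known changes, for the genotype comparison at 3 h alone. No simulated library was made to stand apart, so this does not show how the fit handles the knockout libraries that did. Tables were made with Python 3.11.15.

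The 38 genes, the other gene lists and the tests were chosen with earlier results of these data known. Per-sample values are given for the gene of each role with the largest change on activation in Cre-only cells, and other pathway genes are named as the 3 highest and 3 lowest called on activation and those called between genotypes. Runx1, Myc, Mat2a, Samhd1, Dctd, Dctpp1 and Dtymk were named outside this rule after their values were seen.

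Alternatives were DESeq2 1.42.0 and its size factors, total counts, other count filters, 1 RUVs factor in edgeR or DESeq2, replicate blocks, only the groups compared, and each sample left out. In Cre-only cells, deviations from the group mean correlated across genes between same-numbered samples of both times, at 0.26, 0.165 and 0.134. Differently numbered samples lay between -0.184 and 0.00491. The labels do not say whether the numbers pair the samples, and the reported fits do not use them as pairs. With the replicate number as a block all 38 calls held in Cre-only cells.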

Additional observations from a re-analysis of the deposited data

How the results depend on the processing

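Of the 608 fits of the 38 calls on activation in Cre-only cells over the alternatives, 595 kept the call, 12 lost it and 1 turned its sign. In Runx1 c-k/o cells 578 kept it, 28 lost it and 2 turned. The reversals were those of Uck1, at -0.0905 in Cre-only cells with 1 RUVs factor in DESeq2, and at -0.0506 and -0.118 in Runx1 c-k/o cells with this factor in edgeR and in DESeq2; the cause was not tested. The count of members called between genotypes was 0 in the reported fits. With 1 RUVs factor in DESeq2 it was 2 at rest and 3 at 3 h, against 4.51% and 9.09% of all tested genes. With this factor in edgeR it was 1 at 3 h, against 7.65%. An alternative chosen after seeing the data left out both Runx1 c-k/o libraries that stood apart. There the count was 1 at rest, 4 at 3 h and 1 in the interaction, against 4.35%, 6.65% and 1.36%. With each replicate left out it was 0 to 1 at rest and 0 to 1 at 3 h. The calls were Uck2, lower without resting knockout replicate 2, and Tk2, higher without 3-h knockout replicate 3. In these 2 fits 1.01% and 4.47% of all tested genes were called. With the replicate block across genotypes 0 members were called at either time, and with the block within genotype 38 were called in Cre-only cells, 36 in Runx1 c-k/o cells (not Rrm1 and Uck1) and 0 in the interaction. Same-numbered Runx1 c-k/o samples at rest and 3 h had correlations of -0.229, -0.247 and 0.228. The libraries that stood apart, which bear different numbers, correlated at 0.447. Since each deviation is taken from a mean that includes such a library, these values cannot show whether the numbers pair the samples. Over all genes, 202 were called between genotypes at rest and 375 at 3 h, against 378 and 709 in DESeq2, 524 and 1036 with 1 RUVs factor in edgeR and 611 and 1230 with it in DESeq2. DESeq2, its size factors, total counts and the other count filters called 0 members between genotypes.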
